A study of Mus musculus with 38 samples.

Results

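The response of CD11b+ dendritic cells (DC) of mouse skin to DNFB was compared between cells that had reached the cutaneous lymph nodes and cells sorted from the dermis. For each gene the DNFB effect in node DC (DNFB minus steady-state, on the log2 scale) was set against the same effect in dermal DC, and the difference, node effect minus dermal effect, was tested as an interaction. A positive interaction means a higher effect in node DC. The arrays were chosen by their titles: 12 of the 38 arrays in the series, in 4 groups of 3. All mice were wild-type female C57BL/6 aged 6 weeks. In the node DNFB group and the dermal DNFB group, 10 µl of 0.5% DNFB (dinitrofluorobenzene, a contact sensitiser) in acetone and olive oil was applied 3 days before the ears and the skin-draining nodes were taken. The node steady-state group and the dermal steady-state group came from untreated animals, so DNFB and its solvent cannot be told apart. Node cells (labelled CD11b+ migDC) were sorted as live CD11c+, MHCII high, CD11b+, CD24-, Ly6C- and CD64- cells, and dermal DC as live CD11b+, CD24-, Ly6C-, CD64- and MHCII+ cells. Each array holds the amplified RNA of a small sort from a pool of mice, and node and skin were digested and enriched by different enzymes and gradients, which cannot be told apart from the tissue in a comparison of levels.

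DC of the skin take up antigen, mature and travel along lymph to the draining node, where they present peptides to T cells together with costimulatory ligands such as CD80 and CD86. Dermal CD11b+ DC are the resident cells of this lineage in the skin, and inflamed skin also receives monocytes that can acquire DC features. Contact sensitisers such as DNFB set off interferon, chemokine and maturation programmes in these cells.

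The levels below are the deposited log2 values, which ran between 1.65 and 13.8 over the series. A level under 4.02, the 40th percentile of all values, is called low here. Replicate arrays correlated at r = 0.975 to 0.989 over genes and the medians of the 12 arrays lay between 4.45 and 4.64. Of the DC identity genes, Flt3, the receptor for the DC growth factor, stood at 10.54, 10.42 and 10.49 in node DNFB arrays, against 9.71, 9.80 and 9.70 in node steady-state arrays. In dermal DC it stood at 9.39, 9.26 and 9.39 with DNFB, against 8.66, 9.0 and 8.54 at steady state. Flt3 was thus well above the low level on all 12 arrays, and Ccr7, the chemokine receptor that guides DC into lymph, was between 9.85 and 11.68 on all of them. With DNFB Ccr7 rose in dermal DC by 1.05 ± 0.27 (adjusted p = 0.019 in limma), while its node effect of -0.16 ± 0.27 did not pass. The interaction of Ccr7, -1.21 ± 0.38, did not pass either (adjusted p = 0.14). The node arrays went against their CD11b label at the RNA level. Itgam, which encodes CD11b, was 4.90, 4.25 and 5.07 in node DNFB arrays and 4.71, 4.5 and 4.67 in node steady-state arrays. In dermal DC Itgam was 9.88, 9.78 and 10.33 with DNFB and 9.55, 9.67 and 9.33 at steady state. Ccr2 and Cd209a showed the same split, at or under 4.92 in all node arrays and at or over 9.92 in all dermal arrays. Kmo, another DC identity gene, lay at or under 4.24 in node arrays and at or over 6.39 in dermal arrays. Zbtb46 lay between 6.17 and 6.92 on all 12 arrays. Of 29 DC identity genes 2 had a positive interaction (Irf4 and Mgl2) and 1 a negative one (Kit), against 0.813% and 0.497% of all genes. In node DC 3 rose and 1 fell (0.903% and 0.441% of all genes did), and in dermal DC 5 rose and 2 fell (2.11% and 2.06%). Cd24a RNA lay between 8.31 and 9.98 on all 12 arrays although both gates were CD24-. Of the sort markers measured, only Fcgr1, which encodes CD64, passed the interaction test. Epcam and Cd207, genes of Langerhans cells, lay at or under 5.37 in node arrays.

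Of 19937 genes tested, 261 (1.31%) passed the interaction test at an adjusted p under 0.05. The interaction was positive for 162 (0.813%) and negative for 99 (0.497%), so 62.1% were positive, against 73.1% of 249 calls when each array was centred on its median. The median interaction over all genes was -0.01, and 0.08 after that centring. DNFB changed 268 genes in node DC (1.34%), 180 higher (0.903%) and 88 lower (0.441%), and 830 in dermal DC (4.16%), 420 higher (2.11%) and 410 lower (2.06%). The 67 genes called in both made up 25.0% of the node calls and 8.07% of the dermal calls, and 63 of them moved the same way. Of the genes called in 1 population alone, 744 had no interaction called, 141 in node DC and 603 in dermal DC. For those genes a different effect in the 2 populations was not shown. Sorting the 261 genes by where an effect passed gave 60 with an effect in node DC only (0.301% of all genes), 160 in dermal DC only (0.803%), 4 in both with the same sign (0.0201%), 4 in opposite directions (0.0201%) and 33 in neither alone (0.166%). A further 59 genes (0.296%) changed the same way in both with no interaction shown and are called shared. The count of 261 fell to 170 without dermal DNFB replicate 1, 104 of them positive; without node steady-state replicate 3 there were 107 positive genes, and without node DNFB replicate 2 there were 62 negative ones. The classes of 4 genes are the least settled: the same-sign class held 2 genes without node steady-state replicate 2, without node steady-state replicate 3 or without node DNFB replicate 1, and the opposite class held 2 without dermal steady-state replicate 3.

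**Figure D1:**
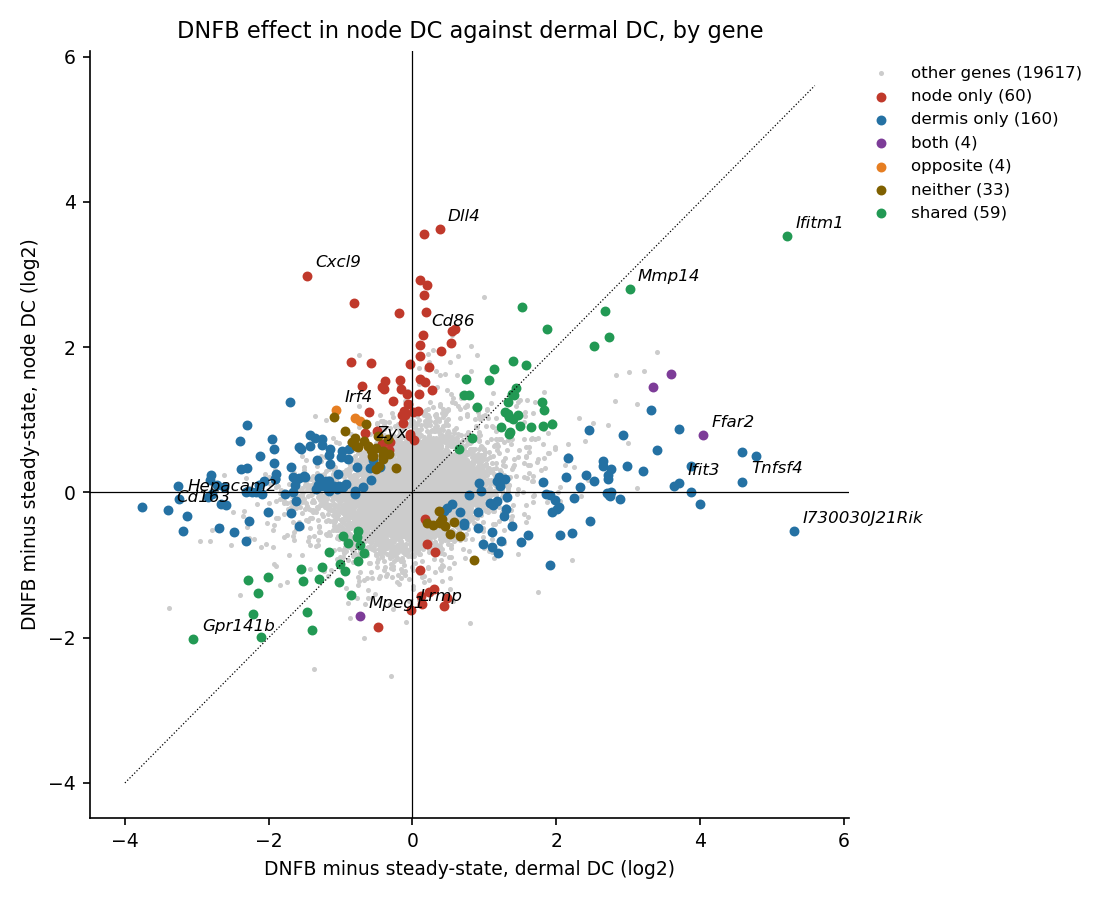
DNFB effect in node DC (vertical axis, log2) against the DNFB effect in dermal DC (horizontal axis, log2), 1 point per gene for 19937 genes, coloured by class. The dotted line marks equal effects; the 60 node-only genes lie along the vertical axis, the 160 dermis-only genes along the horizontal axis, and the 59 shared genes near the line.

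Among the 60 node-only genes, 48 rose in node DC and 12 fell. For 38 of the 48 and for all 12, the 95% confidence interval of the dermal effect lay within 1 log2 unit of 0, so a larger dermal change was outside the interval for those genes. Dll4, a Notch ligand, had one of the widest gaps. It stood at 8.51, 8.25 and 8.94 in node DNFB arrays, against 4.91, 5.04 and 4.88 in node steady-state arrays. Dermal DC had 5.03, 5.44 and 4.67 with DNFB, against 4.59, 4.73 and 4.67 at steady state. Only the node DNFB arrays were high, and they overlapped with no other array. The node effect was 3.62 ± 0.28 (SE) and the dermal effect 0.38 ± 0.28, an interaction of 3.24 ± 0.40 (adjusted p = 1.2e-05). Atp1b1, a subunit of the sodium pump, Susd2, a membrane protein, and Gm14207, a predicted gene, followed the same pattern. Their interactions were 3.39 ± 0.40, 2.82 ± 0.45 and 2.66 ± 0.33, and in each case the other 3 groups were at or under 5.34. Cd302, a C-type lectin, and Egr1, a zinc-finger factor of the immediate early response, also rose in node DC with no dermal effect called. Their interactions were 3.42 ± 0.43 and 2.36 ± 0.41. The dermal effects, -0.82 ± 0.31 and -0.58 ± 0.29, did not pass (adjusted p = 0.16 and 0.38 in limma) but add to these interactions. Cd302 reached 6.71 to 7.72 in node DNFB arrays, still below the 7.82 to 9.08 of dermal DC.

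The chemokines Cxcl9 and Cxcl10, which bind CXCR3 on activated T cells, were node-only genes. Cxcl9 had the largest positive interaction among the node-only genes. It stood at 9.40, 9.76 and 10.03 in node DNFB arrays, against 7.64, 6.01 and 6.59 in node steady-state arrays. The dermal values were 7.61, 7.18 and 7.24 with DNFB, against 8.77, 8.77 and 8.90 at steady state. Within node DC all DNFB arrays were above all steady-state arrays, and within dermal DC all DNFB arrays were below. The node effect of 2.98 ± 0.55 passed (adjusted p = 0.002) and the dermal effect of -1.47 ± 0.55 did not (adjusted p = 0.16), and the interaction was 4.45 ± 0.78 (adjusted p = 0.0017). Cxcl10 stood at 8.91, 8.26 and 7.91 in node DNFB arrays, against 5.46, 6.25 and 5.22 in node steady-state arrays. In dermal DC Cxcl10 was between 9.17 and 9.74 with DNFB and between 8.63 and 9.56 at steady state, so the node DNFB level approached a level that dermal DC held in both states. Its interaction was 2.55 ± 0.65 (adjusted p = 0.044). That call ended without any 1 of 9 arrays (adjusted p up to 0.14) and remained without dermal steady-state replicate 1, node steady-state replicate 2 or node DNFB replicate 3. Of 30 chemokine ligands, 4 had a positive interaction (13.3%, against 0.813% of all genes) and none a negative one, with a median of 0.42. The other two were Ccl2, a monocyte attractant, and Cxcl1, a neutrophil attractant, and both belonged to genes that fell in dermal DC. In node DC 2 of the 30 rose and 1 fell, against 0.903% and 0.441% of all genes. In dermal DC 8 fell and none rose, against 2.06% and 2.11% of all genes.

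The costimulatory ligands split between the 2 populations. Of 20 such genes, 3 had a positive interaction and 1 a negative one (20.0%, against 1.31% of all genes), with a median of 0.28; 6 rose in node DC (0.903% of all genes did) and 5 in dermal DC (2.11%). Cd86, a ligand of CD28, stood at 10.68, 10.49 and 10.69 in node DNFB arrays, against 8.47, 8.46 and 8.42 in node steady-state arrays. In the dermis the values were 10.58, 10.09 and 10.20 with DNFB, against 10.33, 10.05 and 10.06 at steady state. The node steady-state arrays lay below all others, and the node DNFB arrays lay at the dermal level. The node effect was 2.17 ± 0.26 (4.51-fold), the dermal effect 0.15 ± 0.26 with a 95% confidence interval of -0.39 to 0.68, and the interaction 2.03 ± 0.37 (adjusted p = 0.0024). Cd80, the other B7 ligand of CD28, had a node effect of 2.25 ± 0.28 and a dermal effect of 0.60 ± 0.28. Tnfsf9 (4-1BBL, the ligand of CD137) had a node effect of 2.04 ± 0.32 and a dermal effect of 0.11 ± 0.32, with node DNFB levels (7.53 to 8.0) below the dermal levels (9.93 to 10.38). Their interactions were 1.66 ± 0.39 and 1.93 ± 0.45, with adjusted p = 0.024 and 0.022. The call of Cd80 ended without dermal steady-state replicate 1 or 3, dermal DNFB replicate 2 or 3, node steady-state replicate 2, or node DNFB replicate 1 or 3 (adjusted p = 0.059 to 0.075), and with the mean of all its probe sets (adjusted p = 0.13). The call of Tnfsf9 ended without dermal steady-state replicate 2, dermal DNFB replicate 2, node steady-state replicate 1 or 3, or node DNFB replicate 1 or 3 (adjusted p = 0.053 to 0.062).

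Tnfsf4 (OX40L), which costimulates T cells through OX40, went the other way. It stood at 5.46, 5.04 and 6.53 in node DNFB arrays, against 5.33, 5.73 and 5.52 in node steady-state arrays. For dermal DC the levels were 10.00, 9.57 and 9.45 with DNFB, against 4.63, 6.48 and 4.14 at steady state. Only the dermal DNFB arrays were high, above every other array by more than 2 log2 units. The node effect was 0.15 ± 0.42, the dermal effect 4.59 ± 0.42 (24.1-fold) and the interaction -4.44 ± 0.60 (adjusted p = 5.7e-05). A single antigen-presentation gene of each class passed the interaction test. H2-DMa, a chaperone that loads peptide on class II molecules, rose in node DC (interaction 1.43 ± 0.26). Psmb9, an immunoproteasome subunit, rose in dermal DC (interaction -1.11 ± 0.22). These were 1 of 10 class II genes and 1 of 13 class I processing genes, against 1.31% of all genes. Of the 13 class I genes, 5 rose in dermal DC and none in node DC, with median effects of 0.53 and 0.19. Of the 10 class II genes, 2 rose in each population. Over all genes 2.11% rose in dermal DC and 0.903% in node DC. Psmb9 was higher in node DC in both states, at 11.87 to 12.13, against 10.51 to 10.91 in dermal DC with DNFB and 9.28 to 9.58 at steady state. Ly86, the partner of the toll-like protein RP105, rose in node DC as H2-DMa did, with an interaction of 1.82 ± 0.30.

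**Figure D2:**
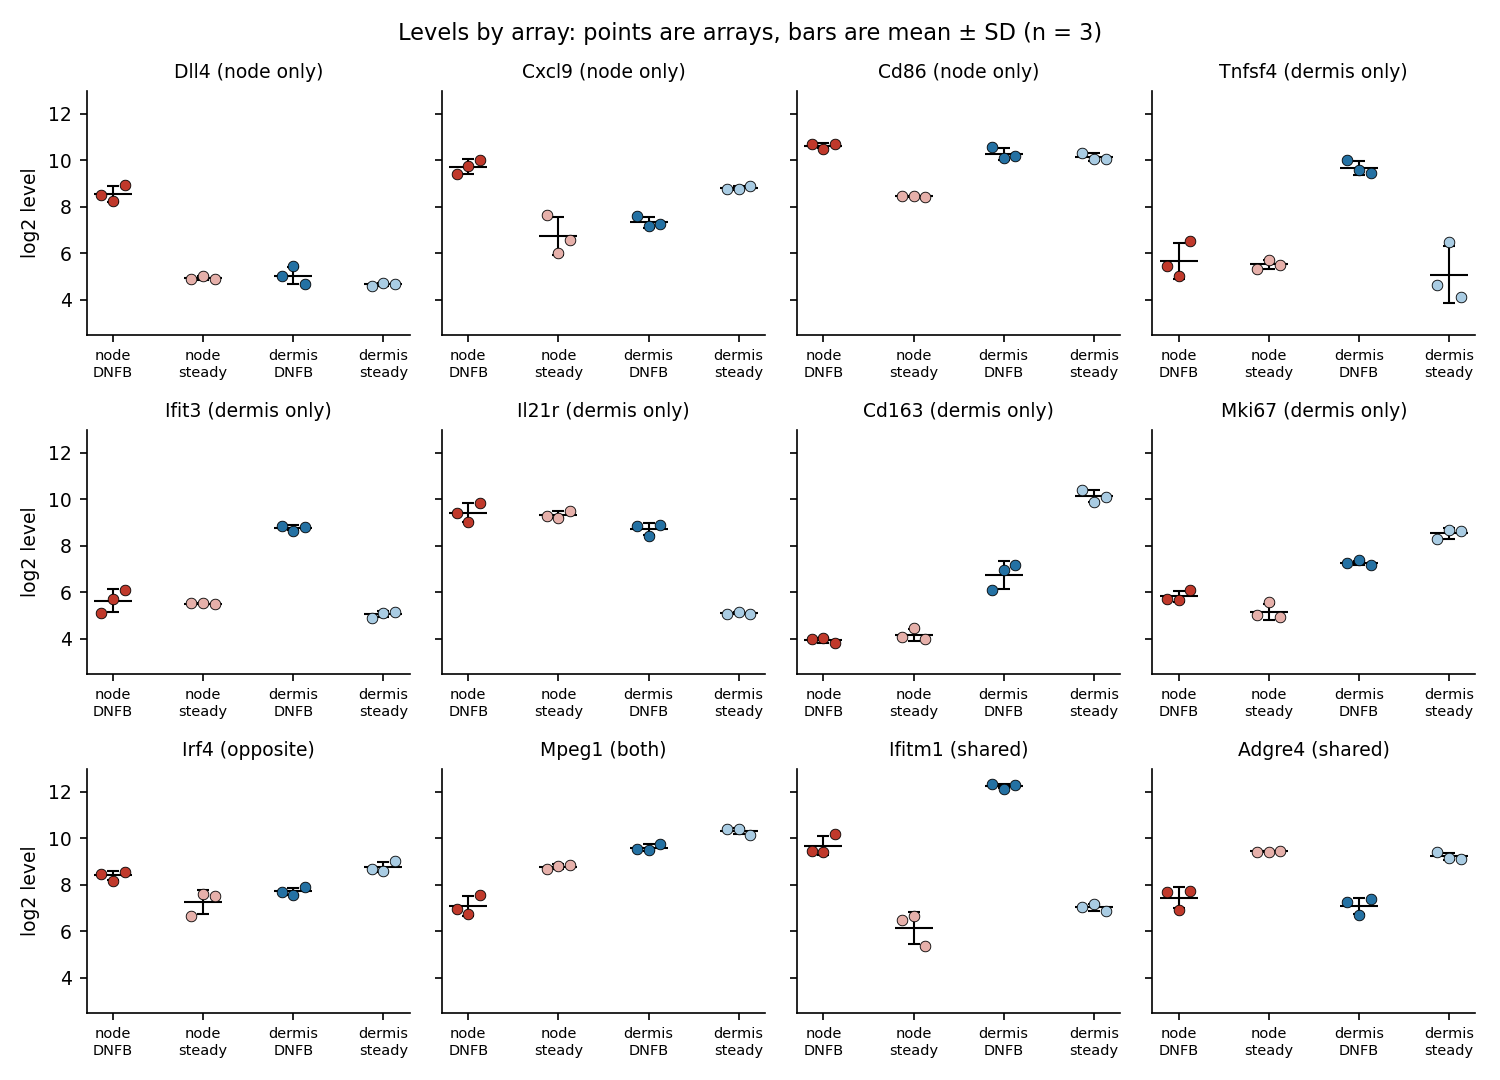
Log2 level on each of the 12 arrays for 12 genes, with node DNFB, node steady-state, dermal DNFB and dermal steady-state arrays from left to right; points are arrays, lines the mean and bars the SD (n = 3). Dll4, Cxcl9 and Cd86 differed between states in node DC, Tnfsf4, Ifit3 and Il21r in dermal DC, and Irf4 moved in opposite directions.

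Type I interferon-stimulated genes had the lowest median interaction of the 36 lists, -1.19. These genes are switched on by type I interferon, and many encode antiviral proteins. Of 27 measured members, 8 had a negative interaction (29.6%, against 0.497% of all genes) and none a positive one. In node DC 3 rose (0.903% of all genes did) and none fell, with a median effect of 0.43; in dermal DC 17 rose (2.11%) and none fell, with a median of 1.51. Ifit3, which restrains viral RNA translation, stood at 5.11, 5.73 and 6.10 in node DNFB arrays, against 5.53, 5.55 and 5.48 in node steady-state arrays. Levels in dermal DC were 8.86, 8.65 and 8.81 with DNFB, against 4.90, 5.13 and 5.14 at steady state. The dermal DNFB arrays alone were high, and the node groups overlapped. The interaction was -3.59 ± 0.63 (adjusted p = 0.0017).

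Oas1a, a sensor enzyme that activates RNase L, had an interaction of -2.29 ± 0.35, Isg20, an exonuclease, one of -2.22 ± 0.43, and Rsad2 (viperin) one of -2.19 ± 0.41. The levels before DNFB set these apart. Rsad2 stood at 6.21, 6.07 and 6.16 in node DNFB arrays and at 6.47, 6.63 and 7.37 in node steady-state arrays, a node effect of -0.68 ± 0.29 that did not pass (adjusted p = 0.45). In dermal DC Rsad2 stood at 6.47, 6.59 and 7.17 with DNFB, against 5.00, 5.38 and 5.32 at steady state, so the dermal cells came up to the level of node cells. Mx1, a dynamin-like antiviral GTPase, Oas2 and Ifit2 were the other members called, named after their values were seen because the naming rule took 4 of each list. At steady state Mx1 was higher in node DC, at 7.70 to 7.94, than in dermal DC, at 4.94 to 5.45, and its interaction was -2.03 ± 0.43. The eighth member, Oasl2, rose in both populations, with an effect of 1.64 ± 0.30 in node DC and 3.60 ± 0.30 in dermal DC. The call of Ifit2 (interaction -1.69 ± 0.42) ended without any 1 of 8 arrays (adjusted p up to 0.14); it remained without dermal steady-state replicate 2, dermal DNFB replicate 2, node steady-state replicate 2 or node steady-state replicate 3. It also ended in a fit of the 12 arrays alone, with quantile normalization, with array medians centred and when the mean levels of the keratinocyte and fibroblast lists entered the fit (adjusted p = 0.054 to 0.085).

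The promoters of 3 of these genes and of Cxcl10 are shown because all 4 hold a motif of the interferon-stimulated response element type while their DNFB effects were called in different populations. Each is the 250 bases before the RefSeq start of the gene in GRCm38.p6, at chr19:34583279-34583528 (+ strand), chr5:120907526-120907775 (- strand), chr12:26456453-26456702 (- strand) and chr5:92348890-92349139 (- strand). Capitals mark matches to GAAANNGAAA or its reverse complement TTTCNNTTTC.
Ifit3: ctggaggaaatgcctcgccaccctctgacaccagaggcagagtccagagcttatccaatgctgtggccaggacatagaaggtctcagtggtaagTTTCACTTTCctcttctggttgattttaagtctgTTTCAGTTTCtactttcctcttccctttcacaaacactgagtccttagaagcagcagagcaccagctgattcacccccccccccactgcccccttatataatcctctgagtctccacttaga
Oas1a: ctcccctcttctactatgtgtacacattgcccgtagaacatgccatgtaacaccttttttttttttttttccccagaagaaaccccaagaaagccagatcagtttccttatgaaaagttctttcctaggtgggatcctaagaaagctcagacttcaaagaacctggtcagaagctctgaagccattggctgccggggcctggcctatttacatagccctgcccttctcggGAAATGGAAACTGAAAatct
Rsad2: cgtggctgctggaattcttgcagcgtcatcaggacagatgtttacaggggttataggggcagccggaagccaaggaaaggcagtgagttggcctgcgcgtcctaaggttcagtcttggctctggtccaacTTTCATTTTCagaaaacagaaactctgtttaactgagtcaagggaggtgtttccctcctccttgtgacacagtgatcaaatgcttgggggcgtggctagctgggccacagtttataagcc
Cxcl10: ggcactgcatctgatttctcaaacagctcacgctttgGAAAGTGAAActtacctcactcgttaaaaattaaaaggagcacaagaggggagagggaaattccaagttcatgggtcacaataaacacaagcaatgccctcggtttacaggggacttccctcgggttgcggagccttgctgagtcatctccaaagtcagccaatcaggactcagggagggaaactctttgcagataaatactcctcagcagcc
The motif began at -156 and -122 from the start in Ifit3, at -20 and -14 in Oas1a as a pair that overlaps, at -120 in Rsad2 and at -213 in Cxcl10. Searched on both strands in windows from 250 bases before to 50 after the start, it was found in 607 of 15613 measured genes with a window (3.89%). It was found in 10 of 20 listed interferon-stimulated genes, in 9 of 56 dermis-only genes that rose (16.1%), in 5 of 28 shared genes that rose (17.9%) and in 2 of 70 dermis-only genes that fell (2.86%). Among node-only genes that rose, 1 of 30 held it (3.33%), and that gene was Cxcl10. A match is a run of letters and no record of binding.

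Of 18 interferon-gamma-induced genes, 2 had a positive interaction (Cxcl9 and Cxcl10) and 1 a negative one (Fcgr1), with a median of 0.11; 0.813% of all genes were positive and 0.497% negative. Of the 18, 3 rose in node DC (0.903% of all genes did), with a median effect of 0.37, and 2 in dermal DC (2.11%), with a median of -0.01. The call of Cxcl10 is limited as described with the chemokines.

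Of the 160 dermis-only genes, 72 rose and 88 fell. The 95% confidence interval of the node effect lay within 1 log2 unit of 0 for 42 of the 72 and 58 of the 88. Among the 72 that rose, the node level lay above both dermal groups for 14, between them for 35 and below both for 23. The largest interaction of all named genes belonged to I730030J21Rik, an uncharacterised RIKEN gene. It stood at 3.38, 3.64 and 3.53 in node DNFB arrays, against 3.22, 3.40 and 5.53 in node steady-state arrays. Among dermal arrays it was at 10.11, 8.56 and 9.87 with DNFB, against 4.57, 3.75 and 4.28 at steady state. The dermal DNFB arrays alone were high, and the interaction was -5.85 ± 0.69 (adjusted p = 7.1e-06). Cd72, an inhibitory receptor with a lectin domain, and Kit, the stem cell factor receptor, behaved likewise, with interactions of -4.02 ± 0.58 and -2.82 ± 0.33. Gm9733, a predicted gene, and Clec4n, which encodes the fungal receptor Dectin-2, had interactions of -3.87 ± 0.82 and -2.91 ± 0.62. Vegfa, the vascular growth factor, had one of -1.68 ± 0.36.

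Il21r, the interleukin-21 receptor, and Stat4, the transcription factor downstream of interleukin-12, rose in dermal DC towards a level that node DC already held. Il21r, named after its values were seen as an example of that pattern, stood at 9.42, 9.02 and 9.82 in node DNFB arrays, against 9.29, 9.21 and 9.50 in node steady-state arrays. In dermal DC it stood at 8.86, 8.44 and 8.89 with DNFB, against 5.07, 5.14 and 5.07 at steady state. The dermal steady-state arrays lay below all others, and the interaction was -3.55 ± 0.43 (adjusted p = 1.2e-05). Stat4 had a node effect of 0.87 ± 0.36 that did not pass, a dermal effect of 3.72 ± 0.36, and an interaction of -2.85 ± 0.51. Over all 72 genes that rose in dermal DC only, the distance between the node and dermal means was smaller with DNFB than at steady state for 22 (30.6%), against 54.6% of all genes. That share comes from the values that defined the class, so it is no separate result.

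Some genes of classical monocytes rose in dermal DC only. Plac8, a marker of Ly6C high monocytes, stood at 4.93, 5.50 and 6.03 in node DNFB arrays, against 5.81, 4.48 and 4.67 in node steady-state arrays. Dermal DC had 10.16, 10.25 and 10.44 with DNFB, against 3.87, 6.98 and 5.67 at steady state. The dermal DNFB arrays were the high ones and lay close together, while the dermal steady-state arrays were spread. The interaction was -4.28 ± 0.88 (adjusted p = 0.0079). Ifitm6, an interferon-induced membrane protein of monocytes, and Vcan, the proteoglycan versican, had interactions of -4.16 ± 0.74 and -2.78 ± 0.45. Ccr1, a chemokine receptor of monocytes and neutrophils, had one of -2.75 ± 0.50. Ifitm6 was spread at steady state as Plac8 was, at 5.09, 8.04 and 5.36 in dermal DC. Dermal steady-state replicate 2 was the highest of its group for Plac8, Ifitm6, Gm9733 (6.77), Clec4n (7.26) and Tnfsf4 (6.48). It was not the highest for Vcan, Cd72 or I730030J21Rik. Fcgr1, the CD64 gene, stood at 7.95, 7.71 and 8.26 in dermal DNFB arrays, against 5.64, 5.98 and 6.20 in dermal steady-state arrays, although the gate was CD64-. Over the 17 measured genes of the classical monocyte list, 3 had a negative interaction and 1 a positive one (Ly86), with a median of -0.08, against 0.497% of all genes negative and 0.813% positive. Of the 17, 1 rose in node DC (0.903% of all genes did), and 4 rose (2.11%) and 1 fell (2.06%) in dermal DC. The mean level of that list was 5.54 to 5.79 in node DNFB arrays, against 5.53 to 5.65 in node steady-state arrays, and 7.85 to 8.08 in dermal DNFB arrays, against 7.25 to 7.48 in dermal steady-state arrays. In sorted bulk RNA a change in the number of cells of a type and a change in RNA per cell cannot be told apart, and the part of monocyte RNA in the dermal effects was not tested.

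Of 31 macrophage core genes, 1 fell and 1 rose in node DC (0.441% and 0.903% of all genes did), while 8 fell and 2 rose in dermal DC (2.06% and 2.11%). Cd163, a scavenger receptor for haemoglobin, stood at 3.98, 4.03 and 3.82 in node DNFB arrays, against 4.10, 4.47 and 3.98 in node steady-state arrays. The dermal values were 6.08, 6.97 and 7.18 with DNFB, against 10.42, 9.90 and 10.11 at steady state. The node arrays were near the low level in both states and the dermal groups did not overlap; the dermal effect was -3.40 ± 0.34, and the interaction was 3.16 ± 0.48 (adjusted p = 0.00033). C1qc, a chain of the complement component C1q, and Apoe, the lipid carrier, had interactions of 2.81 ± 0.60 and 1.38 ± 0.31. Outside that list, Timp2, a metalloproteinase inhibitor, Lyz1, a lysozyme, and Fcgr3, a low-affinity Fc receptor, fell in dermal DC as well, with interactions of 3.11 ± 0.68, 3.23 ± 0.59 and 2.04 ± 0.35. Of the 31 genes, 5 had a positive interaction (Cd163, C1qc, C1qb, Apoe and Csf1r) and 1 a negative one (Fcgr1), against 0.813% and 0.497% of all genes. The median interaction was 0.29 and the median dermal effect -0.44. Csf1r, the receptor of the macrophage growth factor, was called for a rise in node DC (1.07 ± 0.19) from a level far below the dermal one; it and C1qb were named after their values were seen. The list averaged 5.16 to 5.53 in node DNFB arrays, against 5.38 to 5.41 in node steady-state arrays; in dermal DC it was 6.81 to 7.15 with DNFB and 7.51 to 7.75 at steady state. Its part in the interaction was not tested. Without 1 array, Apoe lost its call for dermal steady-state replicate 3, dermal DNFB replicates 1 and 3, node steady-state replicate 3 and node DNFB replicate 3 (adjusted p up to 0.078), Csf1r for dermal steady-state replicate 1, dermal DNFB replicates 1 and 2, node steady-state replicate 2 and node DNFB replicate 3 (up to 0.076), and C1qb, like Apoe and Lyz1 uncalled in a fit of the 12 arrays alone, for dermal steady-state replicates 1 and 3, dermal DNFB replicate 1, node steady-state replicates 1 and 2 and node DNFB replicate 3 (up to 0.11).

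Other genes that fell in dermal DC only included Hepacam2, an adhesion molecule with an interaction of 3.15 ± 0.21. Hepacam2 stood at 3.41, 3.42 and 3.40 in node DNFB arrays, against 3.37, 3.48 and 3.66 in node steady-state arrays. In the dermis the values were 4.41, 4.83 and 4.65 with DNFB, against 8.01, 7.94 and 7.66 at steady state. Node levels of Hepacam2 were under 4.02 throughout, where a fall could hardly show. Both node means were under that level for 8 of the 88 genes that fell in dermal DC only. For 68 of the 88 the node level lay below both dermal groups. Spink2, a serine protease inhibitor, Flt1, a receptor for VEGF, and Cytl1, a secreted cytokine-like protein, stood at or under 4.83 on the node arrays without being low by that measure, with interactions of 3.35 ± 0.71, 2.81 ± 0.43 and 3.56 ± 0.90. The call of Cytl1 remained only without dermal steady-state replicate 2 and ended without any other single array (adjusted p up to 0.12). Over the 88 genes, the distance between node and dermal means was smaller with DNFB for 77 (87.5%), against 54.6% of all genes. The median distance was 0.98 log2 units with DNFB and 2.48 at steady state. The class was picked by a dermal fall with no node effect called, mostly from above the node level. A smaller distance thus follows largely from that choice and is no separate result.

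Type 2 activation genes, a programme linked to interleukins 4 and 13, had 4 of 21 members with a positive interaction (19.0%, against 0.813% of all genes), none with a negative one, and a median of 0.42. In dermal DC 5 fell and 2 rose, against 2.06% and 2.11% of all genes. The 4 were Alox15, Egr2, Mgl2 and Irf4, and Irf4 is described with the genes of opposite direction. Egr2 is also in the immediate early list, and Mgl2 in the list of Fc receptors and uptake lectins. Of the 4, the call of Mgl2 depended on single arrays, as given below. Alox15, a lipoxygenase, stood at or under 4.63 in node DC, and at 4.86, 4.94 and 6.28 in dermal DNFB arrays, against 7.77, 7.94 and 8.22 in dermal steady-state arrays. Its interaction was 2.69 ± 0.53. Egr2, a zinc-finger factor, had an interaction of 2.00 ± 0.36 with a node effect of 0.74 ± 0.26 that did not pass and a dermal effect of -1.26 ± 0.26. Mgl2 (CD301b), a lectin of dermal CD11b+ DC, had an interaction of 2.13 ± 0.50 although neither its node effect (1.03 ± 0.35, adjusted p = 0.21) nor its dermal effect (-1.10 ± 0.35, adjusted p = 0.08) passed. Mgl2 stood at or under 4.78 in all node arrays, but at 10.41 to 10.88 in dermal DNFB arrays and at 11.67 to 11.74 in dermal steady-state arrays. The call of Mgl2 ended without dermal steady-state replicate 3, dermal DNFB replicate 1 or 2, node steady-state replicate 2, or node DNFB replicate 1 or 2 (adjusted p up to 0.066).

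Of 29 cell cycle genes, none passed in node DC (median 0.28; 2 at an unadjusted p under 0.05 in limma), and in dermal DC 9 fell (2.06% of all genes did) and none rose (median -0.74). Of the 29, 5 had a positive interaction (17.2%, against 0.813% of all genes), with a median of 0.87, the highest of the functional lists. Mki67, a protein of cycling cells, stood at 5.71, 5.68 and 6.08 in node DNFB arrays, against 5.01, 5.57 and 4.92 in node steady-state arrays. For dermal DC the levels were 7.26, 7.37 and 7.18 with DNFB, against 8.28, 8.70 and 8.62 at steady state. Neither pair of groups overlapped, and dermal levels were the higher in both states. The interaction was 1.92 ± 0.35 (adjusted p = 0.0024), and that of Cdk1, the mitotic kinase, was 1.74 ± 0.31. Uhrf1 and Dnmt1, which copy DNA methylation after replication, rose in node DC but are not among the 29 listed genes. Their interactions were 2.65 ± 0.51 and 1.72 ± 0.25, and they were named after their values were seen. Dnmt1 stood at 8.61, 8.82 and 8.81 in node DNFB arrays, against 7.06, 7.44 and 7.12 in node steady-state arrays. The calls of Aurkb, a mitotic kinase, and Top2a, a topoisomerase, are less secure: Aurkb (2.07 ± 0.49) lost its call without any 1 of 6 arrays, namely dermal steady-state replicate 2 or 3, dermal DNFB replicate 1, node steady-state replicate 3, or node DNFB replicate 1 or 3 (adjusted p up to 0.085), and Top2a (1.36 ± 0.35) kept it only without dermal steady-state replicate 3 or node DNFB replicate 1 (adjusted p up to 0.15). Top2a also lost its call in a fit of the 12 arrays alone, with quantile normalization, median centring, the mean of all probe sets, trended and robust variances, array weights, or keratinocyte and fibroblast covariates (adjusted p = 0.051 to 0.27).

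**Figure D3:**
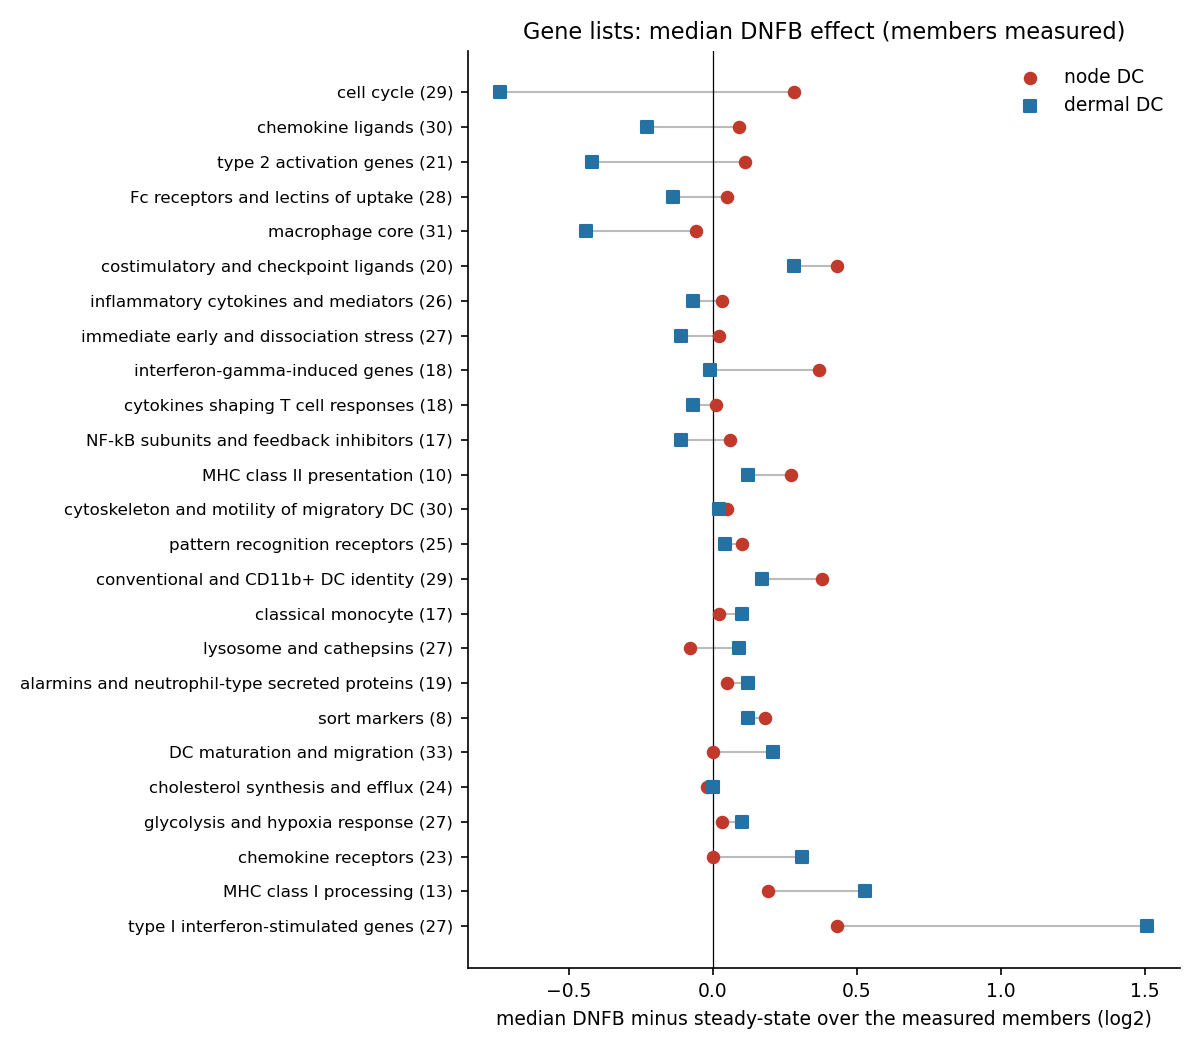
Median DNFB effect over the measured members of each functional, identity and sort list, in node DC (circles) and dermal DC (squares), in log2 units, ordered by the median interaction; the number measured is in brackets. Cell cycle genes are at the top (0.28 in node DC, -0.74 in dermal DC) and interferon-stimulated genes at the bottom (0.43 in node DC, 1.51 in dermal DC).

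Opposite directions were found for 4 genes, all higher in node DC and lower in dermal DC. Irf4, a transcription factor required by CD11b+ DC, stood at 8.47, 8.18 and 8.57 in node DNFB arrays, against 6.68, 7.61 and 7.54 in node steady-state arrays. Levels in dermal DC were 7.69, 7.56 and 7.89 with DNFB, against 8.70, 8.6 and 9.01 at steady state. The DNFB arrays were above the steady-state arrays in node DC and below them in dermal DC, without overlap. The node effect was 1.13 ± 0.29 (adjusted p = 0.037), the dermal effect -1.06 ± 0.29 (adjusted p = 0.028) and the interaction 2.20 ± 0.40 (adjusted p = 0.0025). Zyx, the focal adhesion protein zyxin, had a node effect of 0.64 ± 0.10 and a dermal effect of -0.62 ± 0.10. Rapgef2, an exchange factor for Rap GTPases, had effects of 0.99 ± 0.14 in node DC and -0.74 ± 0.14 in dermal DC, and Stxbp6, a syntaxin-binding protein, effects of 1.02 ± 0.19 and -0.79 ± 0.19 in the same order. The interactions of all 4 passed without any 1 of the 12 arrays, though the class held 2 genes without dermal steady-state replicate 3, since a single effect then missed the threshold.

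Of the 4 genes called in both populations with the same sign, 3 rose more in dermal DC. Ffar2, a receptor for short-chain fatty acids, stood at 5.17, 4.80 and 5.07 in node DNFB arrays, against 4.56, 4.12 and 3.99 in node steady-state arrays. Among dermal arrays it was at 8.61, 8.02 and 8.53 with DNFB, against 4.47, 4.42 and 4.12 at steady state. The rise was 0.79 ± 0.19 in node DC and 4.05 ± 0.19 in dermal DC, an interaction of -3.26 ± 0.26 (adjusted p = 4.8e-09). Spint1, a protease inhibitor, and Oasl2 had interactions of -1.90 ± 0.38 and -1.97 ± 0.42. Mpeg1, the pore-forming protein perforin-2, fell in both, by 1.71 on the log2 scale in node DC and by 0.72 in dermal DC. The interaction of Mpeg1 (-0.98 ± 0.24) passed at adjusted p = 0.034. It did not pass in a fit of the 12 arrays alone (0.09), with array medians centred (0.13), with keratinocyte and fibroblast covariates (0.073), or under a required change of 1 log2 unit. Nor did it pass without dermal steady-state replicate 3, dermal DNFB replicate 1 or 3, node steady-state replicate 2 or 3, or node DNFB replicate 1 or 2 (0.06 to 0.12).

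The 59 shared genes, 35 higher and 24 lower with DNFB, show no interaction at this number of arrays, which is no evidence of equal effects. Ifitm1, an interferon-induced membrane protein, stood at 9.47, 9.42 and 10.18 in node DNFB arrays, against 6.47, 6.64 and 5.36 in node steady-state arrays. In dermal DC it stood at 12.33, 12.14 and 12.28 with DNFB, against 7.06, 7.18 and 6.86 at steady state. Both pairs were well separated, and the interaction of -1.68 ± 0.59 did not pass (adjusted p = 0.21). Mmp14, a membrane metalloproteinase, rose by 2.79 ± 0.38 in node DC and 3.02 ± 0.38 in dermal DC. Sema7a, a semaphorin, Htr7, a serotonin receptor, Ifi205, an interferon-inducible nuclear protein, and I830077J02Rik, an uncharacterised gene, rose by 2.01 to 2.49 in node DC and by 1.87 to 2.74 in dermal DC. Adgre4, an adhesion receptor of myeloid cells, stood at 7.68, 6.93 and 7.74 in node DNFB arrays, against 9.42, 9.43 and 9.46 in node steady-state arrays. In dermal DC Adgre4 stood at 7.24, 6.72 and 7.37 with DNFB, against 9.39, 9.17 and 9.10 at steady state. Levels and effects were alike in both populations, with an interaction of 0.12 ± 0.48. Adgre1, which encodes F4/80, fell by 1.89 in node DC and by 1.39 in dermal DC, and Gpr141b, an orphan receptor, by 2.02 in node DC and by 3.05 in dermal DC. Ehf, an epithelial Ets factor, P3h2, a prolyl hydroxylase, and Ffar4, a receptor for long-chain fatty acids, also fell in both.

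The 12 node-only genes that fell had a median node effect of -1.40. Mmp7, a metalloproteinase, stood at 5.84, 5.86 and 6.57 in node DNFB arrays, against 7.55, 7.92 and 7.41 in node steady-state arrays. In dermal DC Mmp7 was between 4.54 and 4.64 with DNFB and between 4.30 and 4.59 at steady state. The node groups did not overlap and the interaction was -1.68 ± 0.23 (adjusted p = 9.8e-05). Slc41a2, a magnesium transporter, and Aqp9, a channel for water and glycerol, had interactions of -2.01 ± 0.38 and -1.94 ± 0.34. Lrmp, a lymphoid membrane protein, Denn2b and the zinc-finger gene Zfp872 had interactions between -1.63 and -1.60. Lrmp differed from the others in its dermal level, which was 7.22 to 7.94 over both states. Itgax, the CD11c gene used in the node gate, fell by 1.04 ± 0.20 in node DC (adjusted p = 0.0025), and its interaction of -0.74 ± 0.28 did not pass (adjusted p = 0.27).

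Other functional lists differed in how many members passed the interaction test. Over all genes 0.813% had a positive and 0.497% a negative interaction. None of 17 NF-kB subunits and feedback inhibitors and none of 19 alarmins passed the interaction test in limma (2 in each list at an unadjusted p under 0.05), and no member of the first list passed in either population (1 in node DC and 7 in dermal DC at an unadjusted p under 0.05); at this number of arrays that is no evidence of equal effects. Of 27 immediate early and dissociation stress genes 4 had a positive interaction (Egr1, Egr2, Ier3 and Jund) and none a negative one, with a median of 0.19. These 4 were 14.8% of the list, against 0.813% of all genes. In the list of 28 Fc receptors and uptake lectins 3 were positive (Cd163, Fcgr3 and Mgl2) and 1 was negative (Fcgr1). These were 14.3% in all, against 1.31% of all genes. Cd163 is a scavenger receptor that was placed in that list. Of 23 chemokine receptors Ccr1 and Cxcr4 were negative, and of 30 genes of cytoskeleton and motility Cdc42ep3, a Cdc42 effector, and Icam1, an adhesion ligand, were positive. Cdc42ep3 stood at 10.34 to 10.60 in node DNFB arrays and 9.97 to 10.02 in node steady-state arrays, while in dermal DC it stood at 5.82 to 6.49 with DNFB and 7.42 to 7.65 at steady state. Of 18 cytokines that shape T cell responses only Ebi3, the shared subunit of interleukins 27 and 35, was called, with an interaction of 1.48 ± 0.32. Cxcr4 lost its call with array medians centred, without dermal steady-state replicate 3 or without dermal DNFB replicate 3 (adjusted p up to 0.059), Jund kept it only without dermal steady-state replicate 2 or 3, dermal DNFB replicate 3 or node DNFB replicate 3 (adjusted p up to 0.16), and Mgl2 is limited as described with the type 2 genes. Jund also lost its call in a fit of the 12 arrays alone, with quantile normalization, trended and robust variances or the covariates, and Cxcr4 and Jund under a required change of 1 log2 unit. Just inside the threshold lay Mdk, a growth factor that rose in node DC (interaction 1.23, called in the leave-outs only without dermal DNFB replicate 2 or node DNFB replicate 2, adjusted p up to 0.20), and just outside it Nfatc1, a factor of calcium signalling (interaction -1.08).

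**Figure D4:**
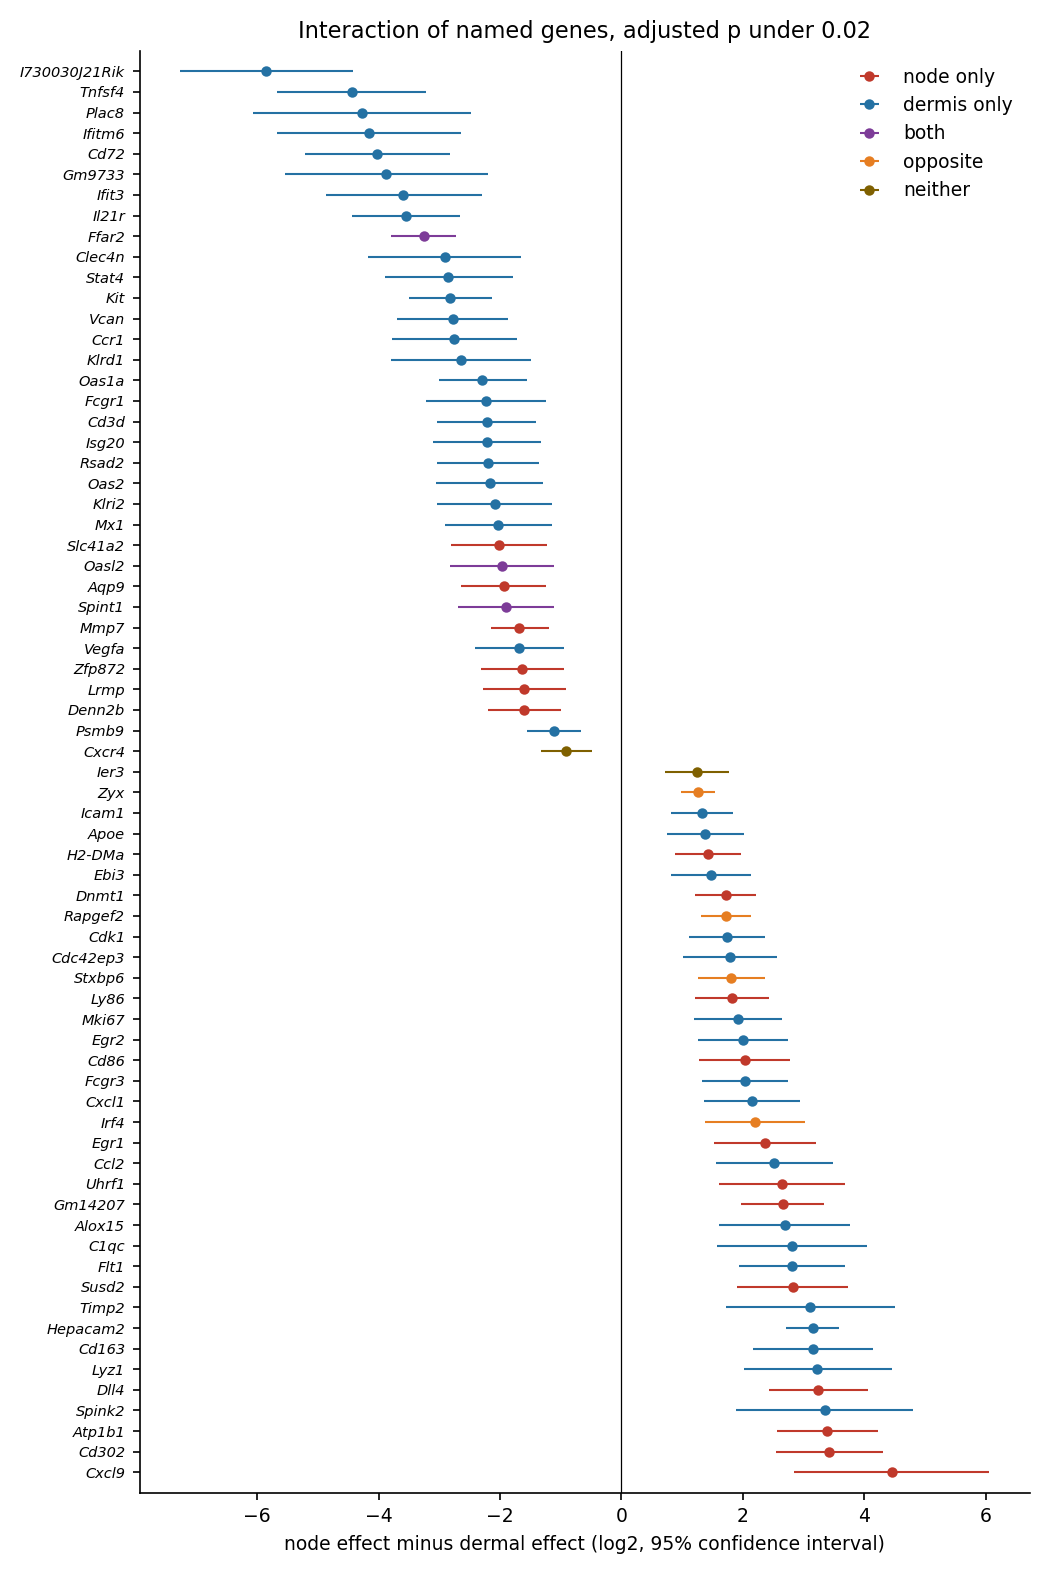
Interaction (node effect minus dermal effect, log2) with its 95% confidence interval for the 69 named genes with an adjusted p under 0.02, coloured by class. Genes left of 0 had the higher effect in dermal DC, led by I730030J21Rik at -5.85, and genes right of 0 the higher effect in node DC, led by Cxcl9 at 4.45.

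The mean levels of several marker lists of other cells differed between the dermal groups and less between the node groups. None of 18 keratinocyte genes passed the interaction test (3 at an unadjusted p under 0.05 in limma), but their median was 0.65, and the list mean was 4.42 to 4.63 in node DNFB arrays, against 4.45 to 4.69 in node steady-state arrays. In dermal arrays the keratinocyte mean was 5.10 to 5.98 with DNFB and 6.23 to 6.58 at steady state. With the keratinocyte and fibroblast means as covariates, 240 genes were called, and 211 of them were among the 261. The T cell list averaged 4.55 to 4.81 in dermal DNFB arrays, against 4.15 to 4.53 in dermal steady-state arrays, and 3 of its 11 genes were called (1.31% of all genes were). Cd3d, a chain of the T cell receptor complex, stood at 5.61, 4.30 and 5.66 in dermal DNFB arrays, against 3.64, 3.06 and 3.04 in dermal steady-state arrays, with an interaction of -2.22 ± 0.40. Cd5 (-1.12) went the same way and Cd2 (2.64) the opposite way; that of Cd5 was kept only without dermal steady-state replicate 1, dermal DNFB replicate 3 or node steady-state replicate 1 (adjusted p up to 0.16), and that of Cd2 only without dermal steady-state replicate 2 or node DNFB replicate 1 (up to 0.12). In the NK cell list 1 of 9 genes was called, Gzmb (granzyme B, -1.01), whose call ended without dermal steady-state replicate 3, dermal DNFB replicate 1 or 3, node steady-state replicate 3, or node DNFB replicate 1 or 2 (adjusted p up to 0.10). In a fit of the 12 arrays alone Cd5 and Gzmb were not called, and with the covariates Cd2 was not. The mast cell and basophil list stood apart on 1 array, dermal DNFB replicate 3, at 4.90, against 3.89 and 3.91 on the other dermal DNFB arrays. On that array the mast cell protease Mcpt4 stood at 8.52, against 3.73 and 3.66 on its replicates and 6.70, 5.38 and 6.08 on the dermal steady-state arrays, so Mcpt4 RNA was not confined to that array. Without it 199 genes were called, 184 of them among the 261, and Kit, the only member of that list called, was 7.82, 7.2 and 7.61 in the dermal DNFB arrays. Of the endothelial list Flt1 and Esam were called, Esam not without dermal DNFB replicate 1 or 3, node steady-state replicate 2 or node DNFB replicate 1 (adjusted p up to 0.076), and none of the fibroblast, B cell, neutrophil, cDC1 and Langerhans cell, plasmacytoid DC or erythroid lists was. The part of these other cells in the results was not tested beyond the covariate fit.

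**Figure D5:**
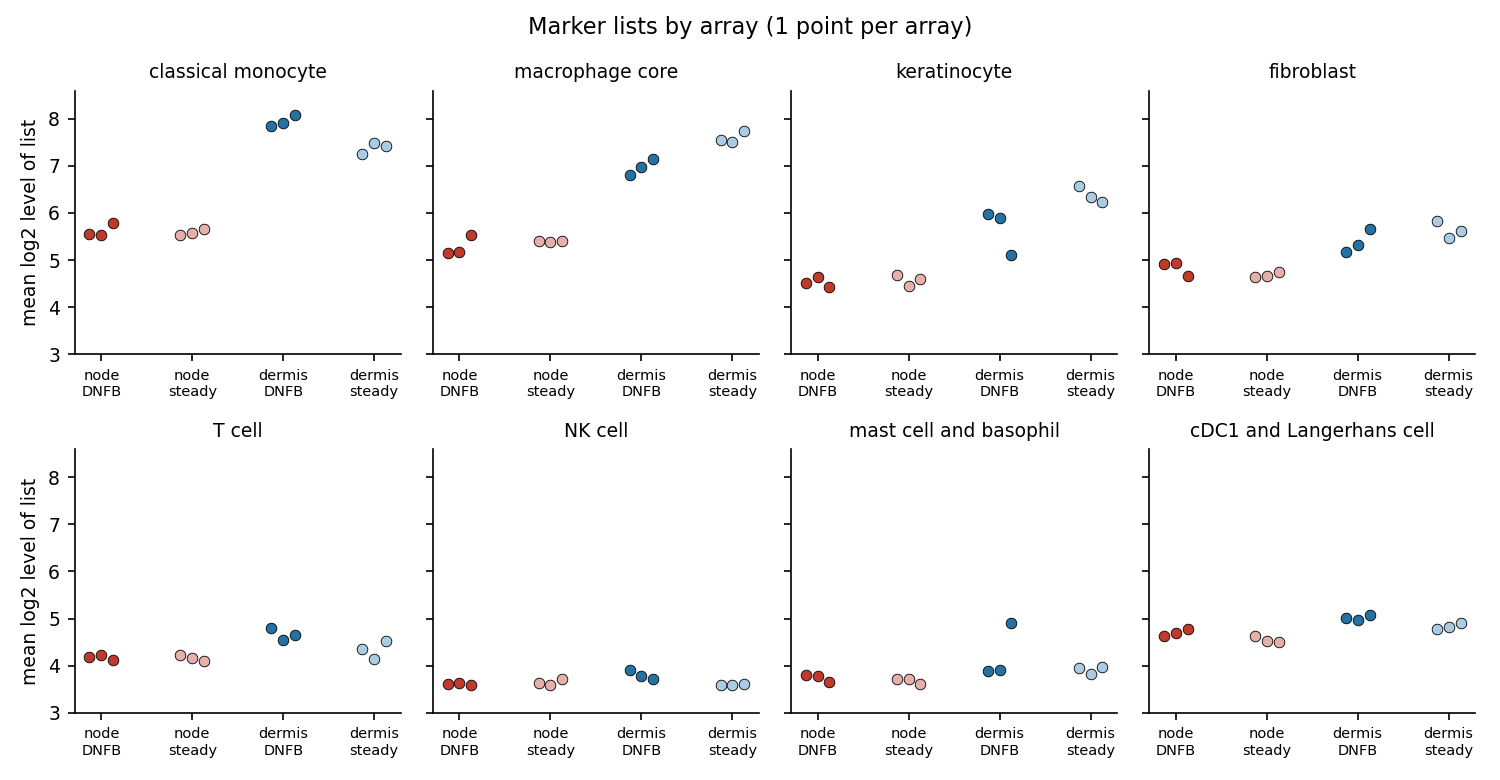
Mean log2 level of 8 marker lists on each of the 12 arrays, with node DNFB, node steady-state, dermal DNFB and dermal steady-state arrays from left to right. The keratinocyte and macrophage lists were lower and the classical monocyte list higher in dermal DNFB than in dermal steady-state arrays, and dermal DNFB replicate 3 stood apart for the mast cell list at 4.90.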

How the data were processed

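RNA of sorted cells was hybridised to Affymetrix mouse gene arrays. The values used are the deposited log2 signals, made by the authors with RMA per the submitters' processing notes, which also name the affy package; versions are not given in the sources used here. No step before these values was repeated. Of 34760 probe sets, 21640 had 1 gene symbol, 1321 several and 11799 none in the platform annotation, and only the first were named; 21553 matched a RefSeq gene ID. For the 954 genes with more than 1 probe set, the one with the highest mean over all arrays was used, leaving 19937 genes.

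All 38 arrays were modelled by the means of their 13 groups with limma 3.58.1 in R 4.3.3 (25 residual degrees of freedom), and the interaction and both DNFB effects were tested two-sided with eBayes and Benjamini-Hochberg adjustment over all genes, at 0.05. Errors are standard errors of the fit and intervals are 95% confidence intervals. Classes follow from the calls; a missed threshold is no evidence of no effect. The number of arrays, 3 per group, limits the precision. The 3 replicates of a cell type come from independent pools of mice per the series' design text. The source names carry a number that node and dermal groups share (3, 4 and 5 in both DNFB groups, 1 and 2 in both steady-state groups). The number also crosses the states: node steady-state replicate 3 carries 3 and dermal steady-state replicate 3 carries 4. No label says what the number marks, so whether node and dermal cells came from the same mice is not known. Arrays with the same number correlated in their deviations from the group means at -0.16, 0.35 and 0.21 with DNFB and at -0.01 and -0.02 at steady state. Across the states, arrays with the same number correlated between -0.02 and 0.02. Node and dermal DNFB arrays with different numbers correlated between -0.45 and 0.29. With that number as a random block 267 genes were called. The arrays were run in 3 chip batches per the series' design text, and no label assigns an array to one, so no fit with batch was possible and batch and group cannot be told apart here. Replicates with the same number in their titles did not all deviate together (correlations between -0.16 and 0.35), so they were not treated as pairs. The members and 36 gene lists were chosen with earlier results of these data known. Some genes are in more than 1 list, so the shares of different lists are not separate results. Genes were named by rule: up to 6 per class and sign with the largest interaction among those whose DNFB and steady-state arrays do not overlap, up to 4 per list with the smallest adjusted p, up to 6 shared genes per direction, the sort markers, and 1 gene on either side of the threshold; others are marked as named after their values were seen. Promoter windows are RefSeq sequences of GRCm38.p6, with 15613 genes matched. The fit was tested on simulated data. Alternatives covered the arrays in the fit, blocks, normalization, low values, probe sets, variance model, array weights, a minimum change of 1 log2 unit, covariates and leaving out each array.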

Additional observations from a re-analysis of the deposited data

Results flagged for a closer look

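Each gene below is one whose DNFB effect differed between node DC and dermal DC by the interaction test in limma (adjusted p under 0.05); the value is the interaction, node effect minus dermal effect, in log2 units. Genes that rose in node DC, with no dermal effect called, were Cxcl9 (4.45), Cd302 (3.42), Atp1b1 (3.39), Dll4 (3.24), Susd2 (2.82), Gm14207 (2.66), Uhrf1 (2.65), Cxcl10 (2.55) and Egr1 (2.36). They also included Cd86 (2.03), Tnfsf9 (1.93), Ly86 (1.82), Dnmt1 (1.72), Cd80 (1.66), H2-DMa (1.43), Esam (1.33), Mdk (1.23) and Csf1r (1.16). Genes that fell in node DC, with no dermal effect called, were Slc41a2 (-2.01), Aqp9 (-1.94), Mmp7 (-1.68), Zfp872 (-1.63), Lrmp (-1.60), Denn2b (-1.60), Gla (-1.17) and Bcl2l14 (-1.14). The calls of Gla and Bcl2l14 each ended without any 1 of 9 of the 12 arrays (adjusted p up to 0.13); that of Gla remained only without dermal DNFB replicate 2, node steady-state replicate 3 or node DNFB replicate 3, and that of Bcl2l14 only without dermal steady-state replicate 2, node steady-state replicate 1 or node DNFB replicate 3. Both also ended in a fit of the 12 arrays alone, with array medians centred and with the keratinocyte and fibroblast covariates. Genes that rose in dermal DC, with no node effect called, were I730030J21Rik (-5.85), Tnfsf4 (-4.44), Plac8 (-4.28), Ifitm6 (-4.16), Cd72 (-4.02), Gm9733 (-3.87), Ifit3 (-3.59), Il21r (-3.55) and Clec4n (-2.91). Next in size came Stat4 (-2.85), Kit (-2.82), Vcan (-2.78), Ccr1 (-2.75), Klrd1 (-2.64), Oas1a (-2.29), Fcgr1 (-2.23), Isg20 (-2.22) and Cd3d (-2.22). Smaller interactions of this kind belonged to Rsad2 (-2.19), Oas2 (-2.17), Klri2 (-2.09), Mx1 (-2.03), Klri1 (-1.89), Ifit2 (-1.69), Vegfa (-1.68), Klra17 (-1.38) and Klrg1 (-1.30). The mean of Klrg1 was low in all 4 groups. The smallest here were Cd5 (-1.12), Psmb9 (-1.11) and Gzmb (-1.01). Genes that fell in dermal DC, with no node effect called, were Cytl1 (3.56), Spink2 (3.35), Lyz1 (3.23), Cd163 (3.16), Hepacam2 (3.15), Timp2 (3.11), Flt1 (2.81), C1qc (2.81) and Alox15 (2.69). Below these in size were Cd2 (2.64), C1qb (2.62), Ccl2 (2.52), Cxcl1 (2.15), Aurkb (2.07), Fcgr3 (2.04), Egr2 (2.00), Mki67 (1.92) and Cdc42ep3 (1.79). The remaining ones were Cdk1 (1.74), Ebi3 (1.48), Apoe (1.38), Top2a (1.36), Icam1 (1.33) and Jund (0.76). Called in both with the same sign were Ffar2 (-3.26), Oasl2 (-1.97), Spint1 (-1.90) and Mpeg1 (-0.98). Opposite effects were found for Irf4 (2.20), Stxbp6 (1.81), Rapgef2 (1.72) and Zyx (1.26). For Mgl2 (2.13), Ier3 (1.25) and Cxcr4 (-0.91) neither single effect passed.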

How the results depend on the processing

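None of the 91 named genes with an interaction changed sign under any of 12 alternatives or without any 1 of the 12 arrays, and 62 kept their call throughout. The count of 261 (162 positive, 99 negative; 60 node only, 160 dermis only, 4 in both, 4 opposite) was within 1.5 times under the other settings, with these exceptions. Fitting only the 12 arrays gave 419 (258 positive, 161 negative), with 302 dermis only, 8 in both and 12 opposite, and shared 209 genes; it ended the call of 16 named genes (Apoe, Bcl2l14, C1qb, Cd5, Gla, Gzmb, Ifit2, Jund, Klra17, Klrg1, Klri1, Klri2, Lyz1, Mdk, Mpeg1 and Top2a). Array weights gave 771 (404 and 367), with 202 node only, 427 dermis only, 18 in both and 21 opposite. The replicate number as a block, which the check of deviations did not bear out as a pairing, gave 360, of which 192 were shared, with 253 dermis only, 8 in both and 12 opposite; it ended the call of 19 named genes: those 16 except C1qb, and C1qc, Esam, Ier3 and Zfp872. The source-name number as a random block gave 267. The cause was not tested. Without 1 array the total was 170 to 249, with 104 to 157 positive, 62 to 102 negative, 42 to 57 node only, 109 to 163 dermis only, 2 to 5 in both and 2 to 6 opposite. Quantile normalization gave 293, centring 249 and a low-value filter 297. Centring and the covariate fit each also ended the calls of Gla and Bcl2l14. Of the 88 dermis-only genes that fell, 8 were low in both node groups, where a fall could hardly show. That count leaves out genes just above 4.02, such as Spink2, Flt1 and Cytl1, and 4.02 lies under the medians of the 12 arrays (4.45 to 4.64). For 68 of the 88 the node level lay below both dermal groups, so 8 may undercount the genes limited in this way.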

Other observations

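NK-type lectin receptors, genes whose symbols begin with Klr, were looked at after the values were seen and carry no test of the group. Of 23 measured, 12 were low in all 4 groups. In node DC none passed, in dermal DC 8 rose and 1 fell with DNFB (2.11% and 2.06% of all genes did), and the median interaction was -0.08. A negative interaction was called for 5 (0.497% of all genes): Klrd1 (-2.64), Klri2 (-2.09), Klri1 (-1.89), Klra17 (-1.38) and Klrg1 (-1.30). Klrg1 was among the 12 that were low in all 4 groups. It stood at 3.47, 3.44 and 4.89 in dermal DNFB arrays, against 2.72, 3.06 and 2.63 in dermal steady-state arrays. Klrd1, which encodes CD94, stood at 7.57, 6.95 and 7.92 in node DNFB arrays, against 7.87, 7.36 and 8.97 in node steady-state arrays. In dermal DC it stood at 11.49, 10.80 and 11.11 with DNFB, against 8.78, 9.48 and 8.98 at steady state. Klrd1 was thus above the low level on all arrays and highest in the dermal DNFB arrays. The NK cell list averaged 3.59 to 3.64 in node DNFB arrays, against 3.60 to 3.71 in node steady-state arrays, and 3.72 to 3.91 in dermal DNFB arrays, against 3.58 to 3.62 in dermal steady-state arrays. Gzmb, of that list, stood at 5.38, 4.44 and 4.95 in dermal DNFB arrays, against 3.81, 3.72 and 3.61 in dermal steady-state arrays. The part of NK cell RNA in these values was not tested. Only Klrd1 kept its call without any 1 array; that of Klri2 ended without dermal steady-state replicate 1, node steady-state replicate 2 or node DNFB replicate 2, and those of Klri1, Klra17 and Klrg1 without any 1 of 7, 9 and 6 arrays. A fit of the 12 arrays alone ended all these calls but that of Klrd1, and those of Klra17 and Klrg1 also ended with quantile normalization and with array medians centred.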
